A study of Mus musculus with 21 samples.

Results

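Endothelial identity genes are the genes by which the cells that line blood vessels are recognised: junction and adhesion proteins, receptors and ligands of vascular signalling, the transcription factors that keep the endothelial state, and proteins of coagulation, tone and transport. The list held 35 genes, chosen by role, with earlier results of these data known. Of these, 34 had a probe set of their own on the mouse arrays, and Ly6a was not analysed here. All 34 were among the 13279 genes tested, of 18193 gene symbols with a probe set. In the heart, capillary endothelial cells lie beside nearly every cardiomyocyte. They supply oxygen and fatty acids, restrain clotting and answer to shear stress, and under pressure overload the capillary bed is known to be remodelled along with the muscle. Apelin and its receptor, the ETS factors Erg, Fli1 and Ets1, and the SoxF factors Sox7, Sox17 and Sox18 are textbook regulators of vessel growth.

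The series compared hearts of gene-targeted mice with reduced Gata4, a cardiac transcription factor, with hearts of wild-type mice. The targeted mice are labelled G4D. Mice of either genotype had transverse aortic constriction (TAC), in which a ligature narrows the aortic arch and the left ventricle pumps against a raised pressure, or a sham operation in which the aorta was left alone. The groups were G4D TAC (n = 6 arrays), G4D sham (n = 5), wild-type TAC (n = 6) and wild-type sham (n = 4). The allele behind the name G4D, strain, age, sex and time after the operation are not given in the sources used here, nor is it stated that replicates came from separate animals, so p-values measure the spread between these arrays. The RNA source is labelled as cardiac myocytes. Markers of endothelium, fibroblasts and macrophages were nonetheless all measured above the filter on dim genes, so the values are treated as those of mixed cardiac tissue. In such RNA, fewer endothelial cells and less RNA per endothelial cell cannot be told apart.

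Values are log2 levels of quantile-normalised signals, so a difference of 1 is a doubling, and levels are compared between samples of 1 gene and never between genes. Each difference was tested with limma across all 13279 genes, and a gene was called when its Benjamini-Hochberg adjusted p was under 0.05. Gata4 averaged 7.97 ± 0.18 in G4D TAC, 7.85 ± 0.09 in G4D sham, 7.80 ± 0.23 in wild-type TAC and 8.11 ± 0.15 in wild-type sham (log2 level, SD). G4D over wild type it was -0.25 ± 0.12 (SE, adjusted p = 0.611) in sham and 0.17 ± 0.10 (adjusted p = 0.556) after TAC. Neither difference was called, and a dimmer Gata4 probe set gave -0.07 in sham and 0.07 after TAC. Gata4 therefore does not check the genotype labels. Where its probe sets lie relative to the targeted allele is not given in the sources used here. Before normalisation the medians of the arrays ran between 4.31 and 5.33, and each array correlated with the mean of the others of its group at 0.969 or more. The signal of the actin control near the 3′ end minus that near the 5′ end, a measure of RNA quality, was 0.25 ± 0.08 in G4D TAC against 0.46 ± 0.10 in G4D sham, and 0.32 ± 0.11 in wild-type TAC against 0.52 ± 0.10 in wild-type sham (log2, SD). TAC and sham arrays did not overlap in the actin measure in either genotype, so it cannot be told apart from TAC in either TAC comparison. The same difference for the Gapdh control overlapped between TAC and sham in each genotype. It ran from -0.31 to -0.01 in G4D TAC against -0.42 to -0.23 in G4D sham. In wild type it ran from -0.30 to -0.06 after TAC against -0.33 to 0.11 in sham. G4D sham sample 5 carried atrial genes: Myl7, the atrial myosin light chain, was at 11.66, against at most 5.42 in the other G4D sham samples. G4D TAC sample 6 was raised less, at 6.87, against at most 5.14 in the other G4D TAC samples, and without it 6 members were called with TAC in G4D, Ets1 being lost.

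RefSeq's promoter table (GRCm38.p6) held a window for 15 of the 35 genes. The windows of Cd34, Apln and Aqp1 are shown because the results turn on these genes: Cd34 was higher after TAC in both genotypes, Apln was higher and Aqp1 lower after TAC in G4D. Each is the 250 bases that end just before the gene's start, read 5′ to 3′ on the gene's strand, with capitals on the ETS core motif, searched as AGGAAG or CGGAAG on both strands. The Cd34 window is chr1:194938571-194938820 on the plus strand, that of Apln is chrX:48034854-48035103 on the minus strand and that of Aqp1 is chr6:55336049-55336298 on the plus strand.
Cd34: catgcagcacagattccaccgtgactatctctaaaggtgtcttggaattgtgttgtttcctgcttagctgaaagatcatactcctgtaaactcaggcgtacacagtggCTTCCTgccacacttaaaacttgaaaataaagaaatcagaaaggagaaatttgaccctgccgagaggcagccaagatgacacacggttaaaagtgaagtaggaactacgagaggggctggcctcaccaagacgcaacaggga
Apln: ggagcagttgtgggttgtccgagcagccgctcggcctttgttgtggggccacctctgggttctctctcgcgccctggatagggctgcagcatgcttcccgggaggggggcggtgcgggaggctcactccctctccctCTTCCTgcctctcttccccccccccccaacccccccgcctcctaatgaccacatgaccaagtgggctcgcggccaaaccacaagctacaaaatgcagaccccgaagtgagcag
Aqp1: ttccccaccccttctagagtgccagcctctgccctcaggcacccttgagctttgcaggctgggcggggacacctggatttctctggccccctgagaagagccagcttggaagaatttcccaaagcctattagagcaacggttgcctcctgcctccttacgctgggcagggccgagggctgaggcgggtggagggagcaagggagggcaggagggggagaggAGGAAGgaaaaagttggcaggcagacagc
The motif began 142 bases before the start in Cd34, 113 in Apln and 29 in Aqp1, and Cd34 and Apln held it as CTTCCT, on the opposite strand. Over the 20 windows of these 15 genes, 12 held the ETS motif (60%), against 39.2% of all 32851 windows in the table. The GATA motif, searched as AGATAA or TGATAA on both strands, stood in 3 of the 20 windows (15%), against 16.6% of all windows, and in none of the 3 shown. A match is a description of letters and says nothing of binding.

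In G4D hearts, TAC moved a few endothelial genes in each direction. Cd34, Icam2, Apln, its receptor Aplnr and Ets1 rose, and Aqp1 and Sox17 fell. That is 5 of 34 higher (14.7%), where 13.2% of all tested genes were called higher, and 2 of 34 lower (5.88%), where 9.32% of all tested genes were called lower. The members' share was near the background in both directions. Their log2 changes had a median of 0.00, rounded, with 17 above and 17 below 0, against a median of -0.02 over all tested genes. In the values as deposited, before quantile normalisation, the medians were 0.40 for the members and 0.31 for all tested genes. There 9 members were called higher and 0 lower, as all tested genes split into 2202 higher and 50 lower: the calls of Sox17 and Aqp1 were lost, and Cdh5, Cldn5, Mmrn2 and Notch4 passed as higher. Under median centring 6 of 34 members were called higher and 0 lower, where of 13269 tested genes 1935 were called higher and 243 lower. The TAC and sham arrays of G4D did not overlap for 2 members that were higher, Cd34 and Aplnr, and for 1 that was lower, Sox17. Over all tested genes 6.73% did not overlap and were higher and 3.38% did not overlap and were lower.

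In wild-type hearts, the same operation raised 4 members and lowered none. Cd34, Icam2, Pecam1 and Gpihbp1 rose, 11.8% of the 34, where 5.19% of all tested genes were called higher and 2.16% lower. The count depended on scaling and on single arrays: 0 members were called in the values as deposited, 2 under median centring (Cd34 and Icam2), and 3 to 7 when 1 array was left out. Most members had a positive change that did not pass the test: 27 lay above 0 and 7 below, with a median log2 change of 0.24 against -0.02 over all tested genes (0.16 against -0.10 as deposited). In 9 of 34 members (26.5%) every wild-type TAC array lay above every wild-type sham array, where 6.36% of all tested genes did not overlap and were higher. These were Pecam1, Cldn5, Icam2, Cd34, Erg, Sox7, Gpihbp1, Apln and Clec14a. No member lay wholly below sham, where 4.12% of all tested genes did. Cd34 and Icam2 were called in both genotypes, 2 of 34 members (5.88%), where 6.22% of all tested genes were. A further 5 (14.7%) were called in G4D and not in wild type, against 16.3% of all tested genes, and 2 (5.88%) in wild type and not in G4D, against 1.13%. In neither were 25 members (73.5%), against 76.4% of all tested genes.

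**Figure D1:**
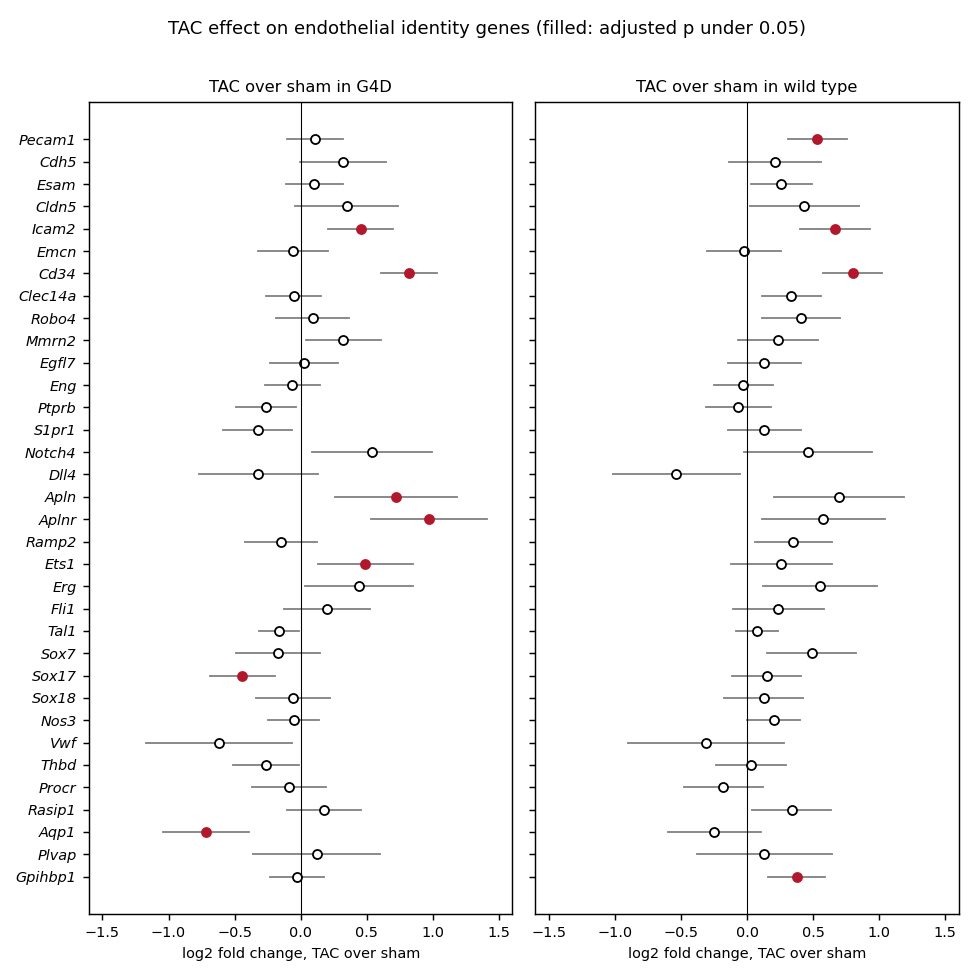
Log2 fold change, TAC over sham, of the 34 measured endothelial identity genes in G4D (left) and wild-type hearts (right). Circles are estimates, lines are 95% confidence intervals and filled circles are genes with an adjusted p under 0.05. The 34 circles centre on 0 in G4D, and 27 of the 34 lie right of 0 in wild type.

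Cd34, a sialomucin of the endothelial surface that progenitor cells and cardiac fibroblasts also carry, had the lowest adjusted p of the list in both TAC comparisons. Its log2 level was 9.13 at the lowest, 9.44 at the median and 9.53 at the highest in G4D TAC, against 8.65, 8.53, 8.17, 8.85 and 8.61 in G4D sham. In wild-type TAC it was 9.19, 9.40 and 9.47 at the lowest, median and highest, against 8.64, 8.49, 8.56 and 8.57 in wild-type sham. Every TAC array of either genotype lay above every sham array. The rise was 0.82 ± 0.10 in G4D (SE, adjusted p = 9.5e-06, 1.76-fold) and 0.80 ± 0.11 in wild type (adjusted p = 0.00013, 1.74-fold).

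Icam2, a ligand for leukocyte integrins that endothelium displays constitutively, ran from 7.87 over a median of 8.12 to 8.64 in G4D TAC, against 7.73, 7.81, 7.63, 7.92 and 7.68 in G4D sham. In wild type its log2 level was 8.23, 8.38 and 8.65 at the lowest, median and highest after TAC, against 7.81, 7.99, 7.52 and 7.57 in sham. The groups were apart in wild type, and in G4D the lowest TAC array lay just under the highest sham array. Icam2 rose by 0.45 ± 0.12 in G4D (adjusted p = 0.00902) and by 0.66 ± 0.13 in wild type (adjusted p = 0.00271).

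Pecam1, the junctional adhesion molecule CD31 that platelets and leukocytes also carry, was called in wild type. Its log2 level was 8.02, 8.18 and 8.49 at the lowest, median and highest in G4D TAC, against 7.79, 8.06, 8.26, 8.16 and 8.24 in G4D sham. In wild-type TAC it was 8.15, 8.45 and 8.56 at the lowest, median and highest, against 8.04, 7.84, 7.80 and 7.80 in wild-type sham. The G4D groups lay over each other and the wild-type groups were apart. In G4D hearts the change of 0.11 was not called (adjusted p = 0.484), and wild-type hearts showed a rise of 0.53 ± 0.11 (adjusted p = 0.00395).

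Other genes of junctions and the endothelial surface did not pass the test in either genotype. Cdh5, VE-cadherin of the adherens junction, had a change of 0.32 in G4D and 0.21 in wild type. For Cldn5, the endothelial tight junction claudin, it was 0.35 in G4D and 0.43 in wild type, and for Esam, another junctional adhesion molecule, 0.10 in G4D and 0.26 in wild type. The sialomucin Emcn was near 0 in both, at -0.06 in G4D and -0.02 in wild type. Clec14a, a lectin of the endothelial surface, stood at -0.05 in G4D and 0.33 in wild type (adjusted p = 0.0621). Its matrix ligand Mmrn2 was at 0.32 in G4D and 0.24 in wild type. Dimmer probe sets of Mmrn2 gave 0.12, 0.20 and 0.49 in G4D, and 0.27, -0.06 and 0.22 in wild type.

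The apelin pair belonged to the larger changes. Aplnr, the apelin receptor, had log2 levels of 9.12, 9.54 and 10.30 at the lowest, median and highest in G4D TAC, against 8.49, 8.74, 8.25, 9.09 and 8.81 in G4D sham. In wild-type TAC they were 9.39, 9.69 and 10.17, against 8.88, 9.12, 8.97 and 9.58 in wild-type sham. The G4D groups were apart, while 1 wild-type sham array reached into the TAC range. Aplnr rose by 0.97 ± 0.21 in G4D (adjusted p = 0.00214, 1.96-fold), and its change in wild type was 0.58 (adjusted p = 0.139). A dimmer probe set of Aplnr gave 0.73 in G4D and 0.42 in wild type.

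Apln, the ligand, is made by sprouting tip cells. Its log2 level was 6.27, 7.26 and 7.78 at the lowest, median and highest in G4D TAC, against 6.80, 6.52, 5.72, 6.84 and 6.06 in G4D sham. In wild type it was 7.33, 7.65 and 7.80 after TAC, against 7.09, 6.85, 6.58 and 7.10 in sham. The wild-type groups were apart and the G4D groups overlapped, with the lowest G4D TAC value under 3 of the 5 sham values. The rise in G4D was 0.72 ± 0.22 (adjusted p = 0.0225), and the wild-type change of 0.69 missed the threshold (adjusted p = 0.0820). The G4D call was lost without G4D sham sample 3, without G4D sham sample 5 or without G4D TAC sample 3, with a log2 change of 0.56 to 0.89 over all 21 fits that left out 1 array.

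Receptors and ligands of other vascular pathways were not called. Notch4, an endothelial Notch receptor, had a change of 0.54 in G4D (adjusted p = 0.0799) and 0.46 in wild type. Its other probe sets, which lay under the level of the filter, gave -0.13 and -0.04 in G4D, and -0.15 and 0.14 in wild type. Its ligand Dll4 was at -0.32 in G4D and -0.54 in wild type, while a dimmer probe set of Dll4 gave -0.05 in G4D and 0.02 in wild type. S1pr1, the sphingosine 1-phosphate receptor that steadies junctions, was at -0.33 in G4D (adjusted p = 0.0641) and 0.13 in wild type. Ramp2, which turns Calcrl into an adrenomedullin receptor, was at -0.15 in G4D and 0.35 in wild type. Robo4, an endothelial guidance receptor, was at 0.09 in G4D and 0.41 in wild type (adjusted p = 0.0876). Eng, the co-receptor for BMP ligands, gave -0.06 in G4D and -0.03 in wild type. Ptprb, the phosphatase of Tie2 and VE-cadherin, gave -0.26 in G4D and -0.06 in wild type, and the secreted factor Egfl7 gave 0.03 in G4D and 0.13 in wild type.

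Among the transcription factors, Sox17 fell in G4D. Sox17, a SoxF factor of arterial endothelium, had log2 levels of 7.37, 7.48 and 7.58 at the lowest, median and highest in G4D TAC, against 7.77, 7.91, 8.18, 7.85 and 7.91 in G4D sham. In wild-type TAC they were 7.29, 7.77 and 7.99, against 7.33, 7.97, 7.62 and 7.41 in wild-type sham. All 6 G4D TAC arrays lay below all 5 G4D sham arrays, and the wild-type groups lay over each other. The G4D change was -0.44 ± 0.12 (adjusted p = 0.0105), and that in wild type was 0.15 (adjusted p = 0.579). The G4D call was lost under both other scalings, with a Sox17 change of -0.23 under median centring and -0.03 as deposited. A second, dimmer probe set of Sox17 gave -0.56 in G4D and 0.06 in wild type.

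The other SoxF genes did not pass the test. Sox7 had a change of -0.17 in G4D and 0.49 in wild type (adjusted p = 0.0739). A second, dimmer probe set of Sox7, with a mean level of 4.57, gave -0.18 in G4D and 0.01 in wild type. Sox18 had a change of -0.06 in G4D and 0.13 in wild type. Ets1, an ETS factor that lymphocytes also express, rose by 0.49 ± 0.17 in G4D (adjusted p = 0.0450), with 0.26 in wild type (adjusted p = 0.482). Its call lay at the threshold: leaving out 1 array ended it in 17 of 21 fits, with an adjusted p of up to 0.110, and 1 of its 4 probe sets gave -0.04 in G4D where the others gave 0.49 to 0.51. Erg, the ETS factor most used as an endothelial nuclear marker, had changes of 0.44 in G4D and 0.55 in wild type, and Fli1, its close relative, of 0.20 in G4D and 0.23 in wild type. Tal1, a factor of endothelial and blood lineages, was at -0.16 in G4D and 0.07 in wild type.

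Several transcription factors and Apln were low in G4D TAC sample 4. It held the lowest G4D TAC level of Fli1 (6.22, against 7.07 to 7.21 in the others), of Ets1 (8.14, against 8.94 to 9.48), of Sox7 (7.19, against 7.67 to 8.34) and of Apln (6.27, against 6.77 to 7.78). Without this array Fli1 passed the test in G4D, with a log2 change of 0.35, and 8 members were called in G4D.

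Aqp1, the water channel of capillary endothelium that red cells also carry, fell in G4D. Its log2 level was 9.45, 9.68 and 10.23 at the lowest, median and highest in G4D TAC, against 10.18, 10.68, 10.81, 10.49 and 10.17 in G4D sham. In wild-type TAC it was 9.59, 9.94 and 10.29, against 10.11, 10.21, 10.38 and 10.09 in wild-type sham. The highest G4D TAC array reached the 2 lowest sham arrays, and the others lay below all sham arrays. The change was -0.72 ± 0.16 in G4D (adjusted p = 0.00236) and -0.25 in wild type (adjusted p = 0.460). The G4D call was lost under both other scalings, with an Aqp1 change of -0.52 under median centring and -0.32 as deposited. Of 3 tested erythroid genes, 1 fell in G4D, Slc4a1 at -0.43, and 0 were called in wild type. The part of red cells in the Aqp1 value was not tested.

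Gpihbp1, which carries lipoprotein lipase to the capillary lumen, was at -0.03 in G4D (adjusted p = 0.882) and rose by 0.37 ± 0.10 in wild type (adjusted p = 0.0315). The wild-type call was lost in 5 of the 21 fits that left out 1 array: without wild-type sham sample 2, 3 or 4, or without wild-type TAC sample 1 or 5. Its log2 change stayed between 0.32 and 0.41 in all 21. Nos3, the endothelial nitric oxide synthase, had changes of -0.05 in G4D and 0.20 in wild type. Rasip1, a regulator of small GTPases in the forming lumen, was at 0.18 in G4D and 0.34 in wild type. Among the anticoagulant receptors, Thbd, thrombomodulin, was at -0.26 in G4D and 0.03 in wild type, and Procr, the protein C receptor, at -0.09 in G4D and -0.18 in wild type. Plvap, the diaphragm protein of fenestrae and caveolae, was at 0.12 in G4D and 0.13 in wild type.

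Vwf, the clotting factor that endothelium stores and releases, was the most variable between G4D sham arrays. It had log2 levels of 6.65, 7.20 and 7.83 at the lowest, median and highest in G4D TAC, against 7.34, 7.03, 8.82, 7.47 and 8.65 in G4D sham. Samples 3 and 5 stood more than 1 log2 unit above the others of the sham group. The change was -0.62 in G4D (adjusted p = 0.103) and -0.31 in wild type (adjusted p = 0.605). Without G4D sham sample 2 Vwf passed the test, at -0.82 (adjusted p = 0.0282). Without G4D sham sample 5, the array with atrial genes, the Vwf change in G4D was -0.42 and that of Plvap, for which sample 5 was also the highest of its group, was 0.41 (adjusted p = 0.0863). The count of members called in G4D was then 6, of which Apln was not one.

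**Figure D2:**
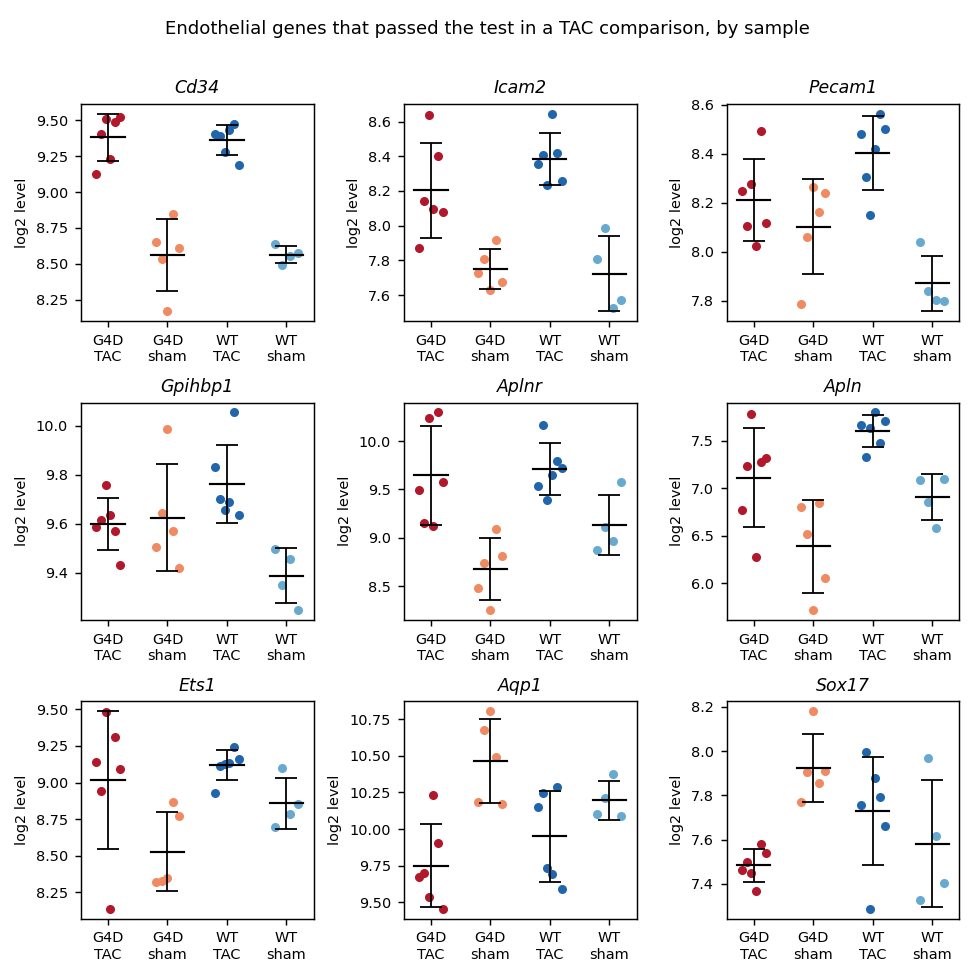
Log2 level by sample of the 9 endothelial genes called in either TAC comparison, in G4D TAC, G4D sham, wild-type TAC and wild-type sham hearts (WT, wild type). Points are samples, long bars are group means and short bars are 1 SD either side. Every Cd34 TAC sample lies above every sham sample in both genotypes, and all 6 Sox17 samples of G4D TAC lie below the 5 of G4D sham.

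The difference in TAC effect between the genotypes was tested as an interaction, the log2 change in G4D minus that in wild type. It leaned towards smaller or more negative values in G4D, and no single gene of the list passed the test. Of the 34 values 25 lay below 0 and 9 above, with a median of -0.16 against 0.01 over all tested genes. No member had an adjusted p under 0.05, as for all but 0.0151% of the tested genes. At an unadjusted p under 0.05 there were 8 of 34 members (23.5%), all below 0, where 8.36% of all tested genes passed in either direction. These counts describe the list and are no test of it, since the members share the same 21 arrays.

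Sox17 had the lowest p of the list for the interaction, at -0.59 ± 0.17 (95% confidence interval -0.95 to -0.23, unadjusted p = 0.00284, adjusted p = 0.294). For Sox7 it was -0.66 ± 0.22 (interval -1.13 to -0.20, adjusted p = 0.363). The dimmer probe sets gave -0.62 for Sox17 and -0.18 for Sox7. The others at an unadjusted p under 0.05 were Ramp2 at -0.50, S1pr1 at -0.46, Pecam1 at -0.43, Gpihbp1 at -0.40, Clec14a at -0.39 and Tal1 at -0.24. All of these but Pecam1, 7 of the 8, had a TAC change under 0 in G4D and over 0 in wild type; of those changes, Sox17 in G4D and Gpihbp1 in wild type passed the test. Cd34, Apln, Notch4, Mmrn2, Procr, Cdh5, Dll4, Ets1 and Aplnr lay above 0, from 0.02 for Cd34 to 0.39 for Aplnr. Scaling matters here: in the values as deposited, without quantile normalisation, the interaction of all tested genes had a median of 0.42 and that of the members 0.33, and 2 of 34 members lay below 0. Under median centring the medians were 0.15 for all tested genes and 0.05 for the members, and 16 of 34 lay below 0. The members' median was below that of all tested genes by 0.10 under either scaling and by 0.16 after quantile normalisation. As deposited, 6 of the 8 named genes changed sign in the interaction and Sox17 (-0.10) and Sox7 (-0.17) did not.

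**Figure D3:**
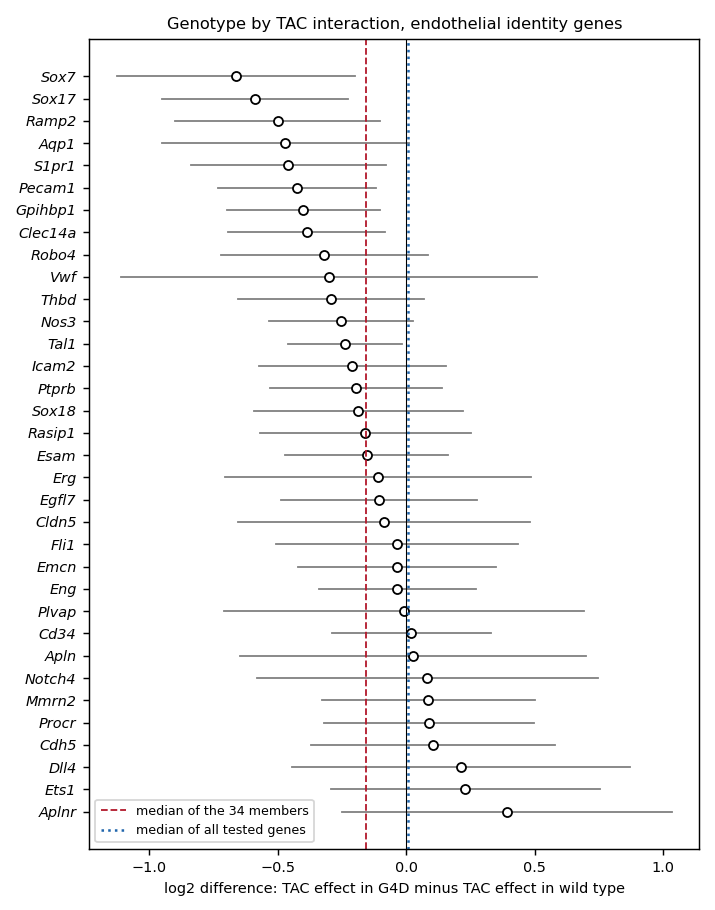
Genotype by TAC interaction of the 34 endothelial identity genes, the log2 change with TAC in G4D minus that in wild type, in order of size. Circles are estimates, lines are 95% confidence intervals, the dashed line is the members' median (-0.16) and the dotted line that of all tested genes (0.01). There are 25 circles left of 0, and no gene has an adjusted p under 0.05.

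Set against wild type directly, no endothelial identity gene passed the test in G4D hearts. After TAC 0 of 34 members were called, where 3.36% of all tested genes were. At an unadjusted p under 0.05 there were 6 (17.6%), where 13.4% of all tested genes passed. Below 0 were Apln at -0.49, Sox7 at -0.42 (adjusted p = 0.139, the lowest of the list), Sox17 at -0.24 and Tal1 at -0.17. Above 0 were Mmrn2 at 0.29 and Procr at 0.32. Dimmer probe sets of Mmrn2 gave 0.15, 0.34 and 0.50. Of the 34 values 25 lay below 0, with a median of -0.13 against -0.01 over all tested genes (0.04 against 0.14 as deposited), and the whole list ran from -0.49 for Apln to 0.35 for Vwf.

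In sham hearts 0 of 34 members were called, where 0.0527% of all tested genes were. At an unadjusted p under 0.05 there were again 6 (17.6%), where 8.09% of all tested genes passed: Vwf at 0.66, Ramp2 at 0.39 (adjusted p = 0.474, the lowest of the list), S1pr1 at 0.35, Sox17 at 0.34, Gpihbp1 at 0.24 and Apln at -0.52. The median of the list was 0.09, with 22 values above 0, against -0.01 over all tested genes, and as deposited it was -0.22 against -0.28. In 2 members (5.88%) every G4D sham array lay above every wild-type sham array, where 1.24% of all tested genes did. S1pr1 had 7.87, 7.97, 8.38, 8.07 and 7.92 in G4D sham, against 7.77, 7.65, 7.67 and 7.68 in wild-type sham. Clec14a had 7.14, 6.94, 6.95, 6.94 and 7.19 in G4D sham, against 6.91, 6.73, 6.79 and 6.89 in wild-type sham, a difference of 0.20.

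Sox17 stood on either side of wild type, above it in sham (0.34) and below it after TAC (-0.24). Apln was below wild type in both, by 0.52 in sham (interval -1.03 to -0.01) and 0.49 after TAC (interval -0.93 to -0.05). None of these values passed after adjustment.

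Levels of the list also varied from array to array within a group. Averaged over the 34 genes, the log2 level ran from 7.73 to 8.04 in G4D TAC, from 7.63 to 7.93 in G4D sham, from 7.76 to 8.17 in wild-type TAC and from 7.66 to 7.78 in wild-type sham. Wild-type TAC sample 5 was the highest of its group in 19 of 34 genes and the lowest in 0, while wild-type TAC sample 3 was the lowest in 16 and the highest in 0. In G4D sham, sample 1 was the lowest in 17 genes, and in wild-type sham, sample 4 was the lowest in 18. Without wild-type TAC sample 3, 7 members were called in wild type, with Robo4, Sox7 and Clec14a added. The members' median interaction was -0.16 with all arrays, -0.09 without wild-type TAC sample 5 and -0.21 without wild-type TAC sample 3. For G4D over wild type after TAC the median was -0.13 with all arrays, -0.06 without sample 5 and -0.17 without sample 3. The SD within groups was 0.10 to 0.48 over the members, with a median of 0.23, against a median of 0.21 over all tested genes.

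Genes of vessel growth outside the list are given by lists of known role. Over all tested genes, 13.2% were called higher and 9.32% lower with TAC in G4D, and 5.19% higher and 2.16% lower in wild type. Between the genotypes after TAC 3.36% were called. Each list count below is to be read beside these shares. Of 13 genes of the VEGF and Tie systems, 2 rose and 2 fell in G4D, and 1 rose and 1 fell in wild type. Nrp2, a co-receptor for VEGF-C and semaphorins, rose by 1.11 in G4D and 0.72 in wild type, and Flt4, the VEGF-C receptor, rose by 0.53 in G4D. Angpt1, the Tie2 ligand that keeps vessels quiescent, changed by -1.33 in G4D and -0.90 in wild type, and Vegfb by -0.42 in G4D. Kdr, the main VEGF-A receptor, was at 0.29 in G4D and 0.05 in wild type and was not called.

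Sprouting and tip cell genes rose in both genotypes. Of 8 tested, 6 rose and 0 fell in each genotype, with a median log2 change of 0.83 in G4D and 0.64 in wild type. In G4D the largest were the basement membrane chains Col4a1 (1.26) and Col4a2 (1.02), nidogen 2, Nid2 (0.95), and Col18a1 (0.92), the source of endostatin. In wild type they were Nid2 (1.19), Col18a1 (1.18), the protease Adamts1 (0.76) and Col4a1 (0.69). Fibroblasts make these matrix genes too, and their markers moved in the same comparisons, as given below.

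Genes of capillary endothelium and its fatty acid uptake, not all of which act in that uptake, differed in the direction of their calls. Of 8, 1 rose and 3 fell in G4D, and 3 rose and 0 fell in wild type. Fabp5, an endothelial fatty acid binding protein that macrophages also express, rose by 0.78 in G4D and 0.83 in wild type. Car4, a carbonic anhydrase of the capillary lumen (-0.76), Rgcc, a cell cycle regulator of capillary endothelium (-0.52), and Tcf15, a partner of Meox2 in lipid transport (-0.49), fell in G4D. Meox2 (0.56) and Fabp4 (0.31) rose in wild type. The interaction was below 0 for all 8, with a median of -0.26, and none was called. As deposited, 2 genes of this list were called in G4D, both higher, and 0 in wild type.

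Of 10 Notch and arterial genes, Cxcr4 (0.59), the receptor for Cxcl12, and Unc5b (0.52), a netrin receptor, rose in G4D, and 0 were called in wild type. Of 11 shear stress and vasoactive genes, 4 rose in each genotype and 0 fell. They were Nostrin (0.79), which binds the nitric oxide synthase, Ptgis (0.52), prostacyclin synthase, Calcrl (0.51), the partner of Ramp2, and Ednrb (0.40), an endothelin receptor, in G4D. In wild type they were Ptgis (0.85), Nostrin (0.58), Ednrb (0.47) and Cav1 (0.43), the caveolar coat protein. Of 7 adhesion and activation genes, 1 rose and 1 fell in G4D and 2 rose and 1 fell in wild type. Mcam, CD146, rose by 0.95 in G4D and 0.81 in wild type, Vcam1, induced on inflamed endothelium, rose by 0.78 in wild type, and Jam2, a junctional adhesion molecule, changed by -0.53 in G4D and -0.42 in wild type.

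A further 18 genes used as general endothelial markers showed 4 rises and 2 falls in G4D and no call in wild type, where the median change was 0.05. The rises were Pcdh12, a vascular protocadherin (0.70), Tspan18 (0.49), Gimap4 (0.48) and Elk3, an ETS factor (0.35), and the falls were Crip2 (-0.46) and Adgrf5 (-0.43). Crip2, a LIM protein, was also lower in G4D than in wild type after TAC, by -0.30 (adjusted p = 0.0434). Among 5 venous and endocardial genes 0 were called with TAC. Npr3, the natriuretic peptide clearance receptor of endocardium, was higher in G4D than in wild type after TAC, by 0.76 (adjusted p = 0.0416). Its difference in sham was 0.55 and was not called. The after-TAC calls of Crip2 and Npr3 were each lost in at least 1 fit that left out 1 array, and under at least 1 other alternative. Among 4 lymphatic genes Pdpn rose by 0.83 in G4D and 0.66 in wild type, and Prox1, which cardiomyocytes also express, changed by -0.56 in G4D and -0.77 in wild type.

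Markers of other cells moved with TAC. Of 11 macrophage and myeloid markers, 10 rose in G4D and 8 in wild type, and their summed linear signal was 3296 to 4778 in G4D TAC against 2338 to 2817 in G4D sham, and 3208 to 5749 in wild-type TAC against 2531 to 3144 in wild-type sham. Of 10 fibroblast markers, 5 rose and 1 fell in G4D and 4 rose and 1 fell in wild type, and the sums were 13859 to 20699 in G4D TAC against 10188 to 14271 in G4D sham, and 11355 to 18513 in wild-type TAC against 10728 to 11019 in wild-type sham. All 7 tested proliferation genes rose in both genotypes, with a median of 2.22 in G4D and 2.33 in wild type, the cells they belong to being unknown in tissue RNA. Of 5 platelet genes, 1 was called in each genotype, Pf4, which rose by 0.52 in G4D and 0.51 in wild type. Changes of the 5 platelet genes lay above 0 in 3 and below in 2 in G4D, the lowest at -0.46. In wild type 4 lay above 0 and 1 below. Every marker counted here had passed the filter on dim genes. The part of these cells in the values of Cd34, Pecam1, Icam2 and Ets1, which some of them also carry, was not tested.

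Fewer cardiomyocyte and smooth muscle markers than macrophage and fibroblast markers were called with TAC. Of 8 cardiomyocyte markers, 2 fell in G4D, Tnni3 (-0.21) and Pln (-0.20), and 0 were called in wild type, with sums of 43867 to 46609 in G4D TAC against 45759 to 49762 in G4D sham. Of 9 smooth muscle and pericyte markers, Cspg4, the pericyte proteoglycan NG2, rose by 1.09 in G4D and 0.49 in wild type. Abcc9, a subunit of the pericyte potassium channel, changed by -0.46 in G4D and -0.31 in wild type. Cspg4 (0.66) and Acta2 (0.81), smooth muscle actin, were higher in G4D than in wild type after TAC. This count of 2 was 1 to 2 when 1 array was left out. In sham 0 of the 9 were called between the genotypes, with differences from -0.07 to 0.84, so a difference already there in sham is not set apart. Of 5 atrial genes, Nppa, the atrial natriuretic peptide, rose by 1.69 in G4D and 1.66 in wild type. Stard10 changed by -1.36 in G4D, in the comparison that holds G4D sham sample 5. Leaving out any 1 array, that sample included, left 2 atrial genes called in G4D. In wild type 0 atrial genes were called lower, the lowest change was -0.77, and 1 gene lay wholly below sham.

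**Figure D4:**
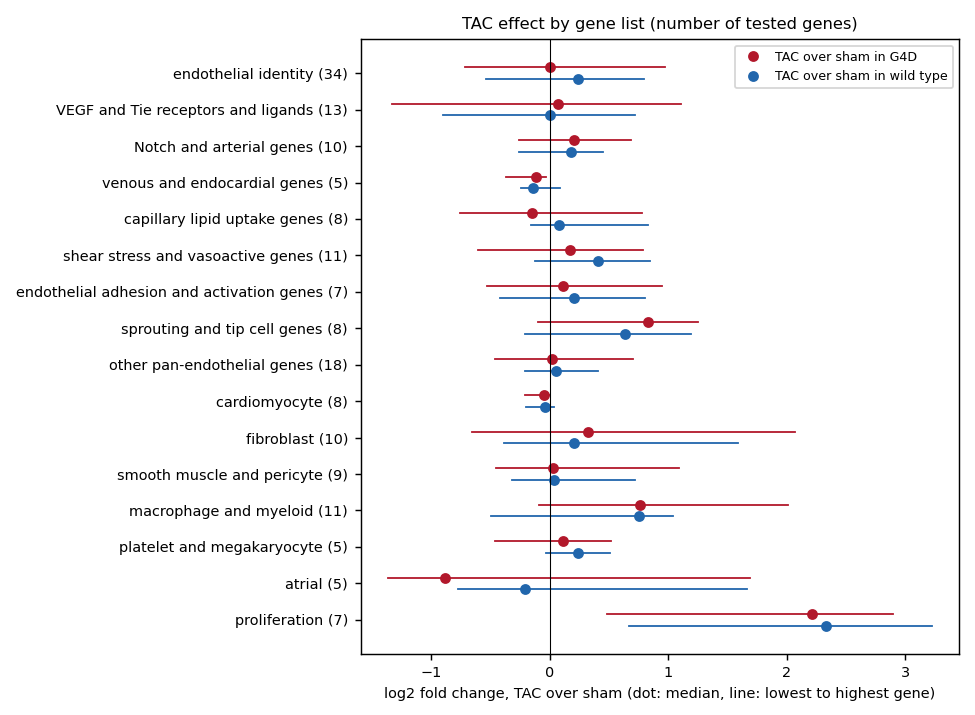
Log2 change with TAC, over sham, of the endothelial identity genes and of other gene lists in G4D and wild-type hearts. Dots are medians over the tested genes of a list, whose number stands in brackets, and lines run from the lowest to the highest gene. The medians of the proliferation, sprouting and macrophage lists lie well right of 0 in both genotypes. The endothelial identity median is 0.00 in G4D and 0.24 in wild type.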

How the data were processed

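RNA labelled as cardiac was measured on 21 Affymetrix arrays. The authors deposited 1 value per probe set and array, made with PLIER, per the submitters' processing notes. The deposited values behave as log2 signals, with no version or centring given in the sources used here. Samples were grouped by title. The 64 control probe sets were set aside, and the others of the 45101 were quantile normalised. Of all probe sets, 34945 had 1 gene symbol in the array annotation, 932 several and 9160 none. Each gene took its brightest probe set, and genes with a mean log2 level of at least 4.35 (the 40th percentile) were tested. One limma 3.58.1 model (R 4.3.3) held all 4 groups, with 17 residual degrees of freedom, and was tested on simulated data. The members and lists were chosen with earlier results of these data known. Every member is given; per-sample values are given for members called in both TAC comparisons and for the 3 largest rises and falls in each, and up to 4 called genes of each other list are named. S1pr1, Clec14a, Vwf and the low values of G4D TAC sample 4 were chosen for display after their values were seen. Arrays have no read depth, so their number limits the precision. Alternatives changed the filter, scaling, choice of probe set, floor on dim values, variance model, replicate block and each array in turn.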

Additional observations from a re-analysis of the deposited data

Results flagged for a closer look

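Of 136 groups of member levels, 7 held 1 sample farther from the others than Dixon's 95% limit, where about 6.8 are due to chance. Cdh5 was at 9.42 in G4D sham sample 4, the highest of its group, with 8.81 next. Eng was at 9.04 in wild-type TAC sample 5, above 8.75. Fli1 was at 6.22 in G4D TAC sample 4, the lowest, with 7.07 next. Nos3 was at 7.70 in G4D sham sample 1, below 7.96. Plvap was at 6.83 in G4D sham sample 5, above 5.65. Tal1 was at 5.33 in wild-type TAC sample 3, below 5.47, and Vwf was at 6.85 in wild-type sham sample 4, below 7.30.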

How the results depend on the processing

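Of 4925 log2 fold changes recomputed for the members over 29 alternatives, 39 lost a call and 23 gained one. The sign differed in 218, none of them of a called value: 107 when 1 array was left out, 68 as deposited, 26 under median centring, 9 with the mean of all probe sets of a gene and 8 with the replicate block. The same sign and the same side of the threshold held in 4645. Members called with TAC in wild type were 4, but 0 in the values as deposited and 2 under median centring. Leaving out 1 array gave 3 to 7 in wild type and 5 to 10 in G4D, where the other alternatives gave 5 to 9 against 7. No member was called in either genotype comparison or in the interaction under any alternative. Cd34, Icam2, Aplnr, Sox17, Aqp1 in G4D and Cd34, Icam2, Pecam1 in wild type kept their calls without each array in turn. As deposited and under median centring, Sox17 and Aqp1 in G4D and Pecam1 and Gpihbp1 in wild type lost theirs; Sox17 was between -0.50 and -0.03 and Aqp1 between -0.72 and -0.32 over the alternatives that kept every array. Icam2 and Cd34 in wild type lost theirs as deposited. As deposited, the median TAC change of all tested genes was 0.31 in G4D and -0.10 in wild type, and 8 of 11 macrophage markers called in wild type became 0. Over all tested genes, calls with TAC in wild type were 976, against 95 as deposited, 388 under median centring and 488 with the replicate block. After TAC, genotype calls were 446, against 64, 185 and 274 under the same settings. In sham they were 7 (1 to 27 without 1 array) and in the interaction 2 (1 to 29 without 1 array). In G4D they were 1748 higher and 1237 lower, and 2202 higher and 50 lower as deposited. The replicate numbers share no stated pairing: of 28 same-numbered pairs 9 correlated over 0.1 and 15 below 0 in their deviations from group means (-0.36 to 0.42, median -0.07). With the replicate block Apln and Ets1 in G4D and Gpihbp1 in wild type lost their calls. The number of arrays, 4 to 6 a group, limits what could be called.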
